A study of Mus musculus with 2 samples.

Results

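Cytosolic ribosomal proteins are the protein building blocks of the ribosome outside mitochondria, and their genes were taken from the deposited table by symbol: Rpl or Rps with a number, Rplp0, Rplp1 and Rplp2, and Rpsa, with rows marked as pseudogenes by the ending -ps left out. The rule found 84 of 34745 genes, 51 of the large and 33 of the small subunit. The study asked how cyclic helix B peptide (CHBP), a non-erythropoietic peptide derived from erythropoietin, alters monocytic myeloid-derived suppressor cells (M-MDSC), immature myeloid cells that suppress T cells. Bone marrow cells of mice, which the methods give as C57BL/6 aged 6 to 8 weeks, grew for 7 days in GM-CSF (50 ng/ml), without CHBP (CHBP-) or with it (CHBP+). The methods give 20 μM as the dose of CHBP in culture, while the study's dose series was in nM. The strain label reads C57BL/6 for the CHBP- sample and C57BL/7 for the CHBP+ sample. Each condition was 1 RNA-seq library of sorted CD11b+Ly6G-Ly6Chigh cells, so no difference here has a replicate check and no test between conditions was possible.

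Each ribosome carries, with the exception of the P stalk, a single copy of each of its proteins, so cells make these proteins in matched amounts. Much of their control is translational: ribosomal protein mRNAs begin with a run of pyrimidines, the terminal oligopyrimidine (TOP) motif, through which LARP1 and the growth kinase mTORC1 hold back or release their translation. Their genes are also known for having many processed copies elsewhere in the genome. Proliferating myeloid progenitors are known to make large numbers of ribosomes.

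The sequence around the transcription start is shown for genes at both ends of the range of ratios given below, because it holds the motif by which the group is jointly controlled. Each is 10 bases before and 20 bases from the start, 5′ to 3′ on the gene's strand, from RefSeq on GRCm38.p6, with the pyrimidine run (at least 8 bases of C and T beginning with C within 5 bases of the start) in capitals. Rpl35 (chr2:39005112-39005141, minus strand), Rplp2 (chr7:141447641-141447670, plus strand) and Rps18 (chr17:33955646-33955675, minus strand) had by their own rows some of the lowest ratios. Rpl15 (chr14:18270967-18270996, minus strand), Rps10 (chr17:27635225-27635254, minus strand) and Rps6 (chr4:86857348-86857377, minus strand) were among the least different.
Rpl35: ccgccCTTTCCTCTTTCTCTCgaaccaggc
Rplp2: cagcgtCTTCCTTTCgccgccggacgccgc
Rps18: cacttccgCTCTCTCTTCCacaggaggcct
Rpl15: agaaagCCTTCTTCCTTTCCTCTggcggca
Rps10: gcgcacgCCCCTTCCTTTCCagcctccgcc
Rps6: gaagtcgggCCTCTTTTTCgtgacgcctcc

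RefSeq windows from 250 bases before to 50 bases after the start matched 63 of the 84 genes, with 75 windows. A pyrimidine run as defined above lay at the start in 28.0% of the ribosomal protein windows, in 4.37% of all 32851 windows and in 2.67% of the 75 windows of mitochondrial ribosomal protein genes. The ETS-family motif CCGGAAG, searched on both strands, was in 36.0% of ribosomal protein windows, 8.86% of all windows and 34.7% of mitochondrial ribosomal protein windows. GGGCGG, the core of an Sp1 site, was in 60.0% of ribosomal protein windows and 35.7% of all windows, and TATAAA in 9.33% and 13.6%. These are matches of letters, not measured binding, and other start sites of the same genes may differ.

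In both libraries the ribosomal protein genes together took a few percent of all reads, and a smaller share in CHBP+. The 84 genes held 456979 of 16484504 counted reads in CHBP-, which is 2.77% (95% exact Clopper-Pearson interval 2.76% to 2.78%), and 331397 of 16280466 in CHBP+, which is 2.04% (2.03% to 2.04%). The share in CHBP+ was 0.734 of that in CHBP-. The large subunit went from 1.39% to 1.02% of reads and the small subunit from 1.38% to 1.01%, which is 0.735 and 0.733 of the share in CHBP-. Such intervals cover counting error only and take each read as independent. The reads carry no molecular identifiers, so duplicates of a molecule are counted as separate reads and the intervals may be too narrow. In these bulk samples fewer cells with high ribosomal protein expression and less of this mRNA per cell cannot be told apart. With 1 library per condition, neither can be told apart from a difference between the libraries in preparation. Ratios also differed with mRNA length over all genes, as given below.

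Ratios per gene are the log2 of FPKM plus 1 in CHBP+ over FPKM plus 1 in CHBP-, where FPKM is reads scaled by gene length and library total, and genes of at least 1 FPKM in one library were kept. Of the 84 genes, 78 passed this filter, 47 of the large and 31 of the small subunit. All 78 had a ratio below 0, as did 53.7% of all 10948 genes kept. The ratio was at least 1.5-fold lower in 10 large and 8 small subunit genes, against 2.89% of all genes kept, and in none was it at least 1.5-fold higher, against 3.42% of all. The counting interval lay wholly below 0 in 45 of 47 large and 27 of 31 small subunit genes, against 31.0% of all genes, and wholly above 0 in none, against 27.9%. The median ratio was -0.46 for the large subunit (interquartile range -0.58 to -0.35, SD over genes 0.17) and -0.48 for the small subunit (-0.59 to -0.41, SD 0.15), beside -0.03 over all genes kept. A ratio at the common median of -0.47 is an FPKM plus 1 that is 28.0% lower. The subunit medians differed by -0.02 (small minus large), a difference that was not tested.

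**Figure D1:**
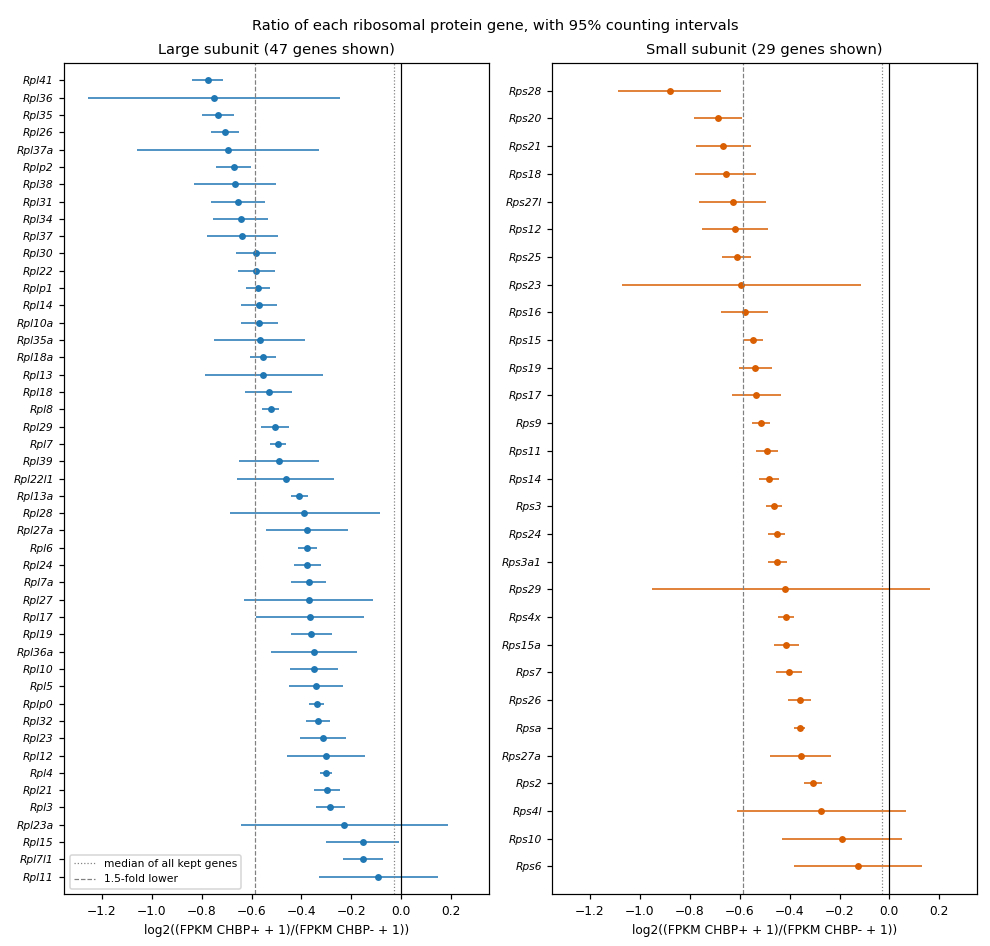
log2 ratio of kept ribosomal protein genes (points), CHBP+ over CHBP-, with 95% intervals from its read counts (lines), for 47 large and 29 of the 31 small subunit genes. The solid line is 0, the dotted line the median of all kept genes (-0.03) and the dashed line 1.5-fold lower. Every point lies left of 0, from -0.09 (Rpl11) to -0.88 (Rps28).

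The 2 libraries ranked the genes almost alike, with Spearman's rho of 0.997 between their FPKM over 78 genes, a description over genes that share both libraries. The same 5 genes, Rpsa, Rpl4, Rplp0, Rps3 and Rpl7, held the most reads in each, 28.7% of all ribosomal protein reads in CHBP- and 30.2% in CHBP+. All 56 genes with at least 1000 reads in CHBP- had an interval below 0, with ratios from -0.78 to -0.15, beside 39.0% of 3563 other kept genes with as many reads, whose median ratio was 0.00. At high FPKM the other genes were lower too: of 398 other genes of at least 100 FPKM in CHBP-, 74.4% had an interval below 0 and the median ratio was -0.20, beside all 32 ribosomal protein genes at that level with a median of -0.47. Of the 11 kept genes with fewer than 200 reads in CHBP-, 5 had an interval below 0, and the other 6 were all of the kept genes whose interval spanned 0.

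**Figure D2:**
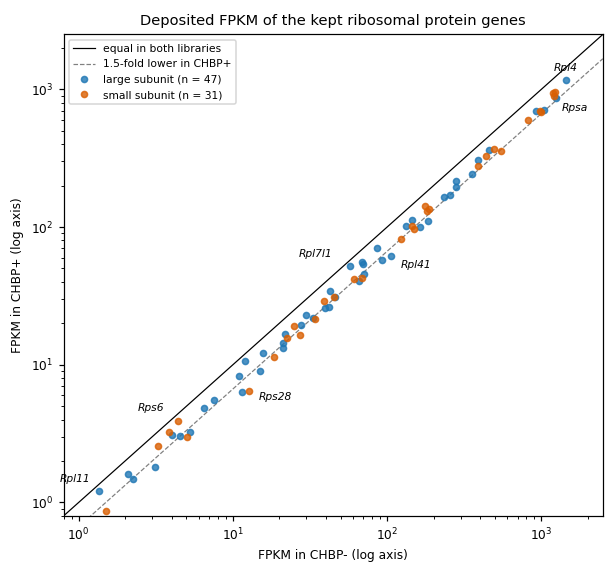
Deposited FPKM of each kept ribosomal protein gene in CHBP- (x axis) and CHBP+ (y axis), both on log axes, with large and small subunit genes in separate colours. The solid line marks equal values and the dashed line values 1.5-fold lower in CHBP+. All points lie below the solid line, over a range of level from 1.36 FPKM (Rpl11) to 1442 FPKM (Rpl4) in CHBP-.

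The acidic P proteins form the stalk of the large subunit that recruits the elongation factors. Rplp0, the scaffold of the stalk, was at 458 FPKM in CHBP- (21204 reads) and 362 in CHBP+ (16544 reads), a log2 ratio of -0.34 (95% interval -0.37 to -0.31). Rplp1 was at 1046 and 702 FPKM, a ratio of -0.57 (-0.62 to -0.53), and Rplp2 at 92.0 and 57.3 FPKM, a ratio of -0.67 (-0.74 to -0.60). The counting intervals of Rplp1 and Rplp2, whose proteins bind Rplp0 as dimers, did not overlap that of Rplp0. The mRNA of Rplp0 has 1358 bases and those of Rplp1 and Rplp2 495 and 421, and ratios differed with mRNA length over all genes, as given below. With that trend taken out, Rplp0 was at -0.14, Rplp1 at -0.25 and Rplp2 at -0.35.

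The large subunit genes of highest deposited FPKM in CHBP- were Rpl4, Rpl8 and Rplp1. Per kilobase of annotated mRNA they were Rpl4 at 1442, Rpl7 at 1375 and Rpl8 at 1244 CPM (counts scaled to the library total). Rpl4, whose protein lines the exit tunnel of the nascent chain, was at 1442 FPKM in CHBP- and 1170 in CHBP+, a ratio of -0.30 (-0.33 to -0.28). Rpl8, a protein near the peptidyl transferase centre, was at 1244 and 865 FPKM, a ratio of -0.52 (-0.56 to -0.49). Rpl3, another core protein bound to the ribosomal RNA, was at 68.3 and 55.9 FPKM, a ratio of -0.28 (-0.34 to -0.23).

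The lowest ratios of the large subunit were those of genes for small proteins. Rpl41, which encodes the shortest ribosomal protein and lies at chr10:128548114-128549305, was at 107 FPKM in CHBP- (5742 reads) and 61.8 in CHBP+ (3289 reads), a ratio of -0.78 (-0.84 to -0.72). Rpl36 had few reads, 76 and 42, and a wide interval around its ratio of -0.75 (-1.25 to -0.25). Rpl35 and Rpl26, whose proteins sit around the tunnel exit, were at 185 and 111 FPKM and at 164 and 100.2 FPKM, with ratios of -0.73 (-0.80 to -0.67) and -0.71 (-0.76 to -0.65). Rpl37a, with 145 and 85 reads, had a ratio of -0.69 (-1.06 to -0.33). The intervals of Rpl41, Rpl35 and Rpl26 lay wholly beyond 1.5-fold, while those of Rpl36 and Rpl37a did not. Rpl35 overlaps Arpc5l and Wdr38, and with the reads of its copies added its ratio was -0.44 as CPM, no longer 1.5-fold lower.

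At the other end, Rpl11, Rpl7l1, Rpl15, Rpl23a and Rpl3 had the ratios nearest to 0. Rpl11 and Rpl5 form a particle with a ribosomal RNA that can also bind Mdm2, the regulator of p53. Rpl11 (chr4:136028265-136053428) was at 1.36 FPKM in CHBP- (102 reads) and 1.22 in CHBP+ (90 reads), a ratio of -0.09 with an interval that spans 0 (-0.33 to 0.15). Rpl5 was at 15.6 and 12.1 FPKM, a ratio of -0.34 (-0.45 to -0.23). Rpl15 had 693 and 609 reads and a ratio of -0.15 (-0.30 to -0.01). Rpl23a, where nascent chains meet their targeting factors, had only 48 and 37 reads and a ratio of -0.23 (-0.64 to 0.19).

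The small subunit genes of highest deposited FPKM in CHBP- were Rpsa, Rps24 and Rps26. Per kilobase of annotated mRNA they were Rps15 at 1673, Rps14 at 1302 and Rpsa at 1233 CPM. Rpsa, which lies at chr9:120127766-120132369 and is also known as the laminin receptor, held the most reads of all 84 genes: it was at 1233 FPKM in CHBP- (37833 reads) and 961 in CHBP+ (29128 reads), a ratio of -0.36 (-0.38 to -0.34). Rps24 was at 1213 and 887 FPKM, a ratio of -0.45 (-0.48 to -0.42), and Rps26, which contacts the mRNA at the exit channel, at 1196 and 932 FPKM, a ratio of -0.36 (-0.41 to -0.31). Rps19, the gene most often mutated in Diamond-Blackfan anaemia, was at 45.6 and 31.1 FPKM, a ratio of -0.54 (-0.60 to -0.47).

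Rps28 had the lowest ratio of all 78 genes. Rps28, which lies at chr17:33819027-33824562 and also contacts the mRNA exit region, was at 12.7 FPKM in CHBP- (463 reads) and 6.46 in CHBP+ (232 reads), a ratio of -0.88 (-1.09 to -0.67). It overlaps Kank3, and since strand handling was not stated the reads of the 2 genes cannot be told apart there. Next came Rps20, a protein of the head that is ubiquitylated at stalled ribosomes, at 27.1 and 16.4 FPKM with a ratio of -0.69 (-0.78 to -0.59). Rps21 was at 68.8 and 43.0 FPKM, a ratio of -0.67 (-0.78 to -0.55), and Rps18 at 18.6 and 11.4 FPKM, a ratio of -0.66 (-0.78 to -0.53), and Rps18 overlaps Vps52. The 4 intervals overlapped each other.

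Rps6, Rps10, Rps4l, Rps2 and Rps27a had the small subunit ratios nearest to 0. Rps6, the substrate of the S6 kinases downstream of mTORC1 (chr4:86854660-86857412), had 177 reads at 4.38 FPKM in CHBP- and 157 at 3.93 FPKM in CHBP+, a ratio of -0.12 with an interval that spans 0 (-0.38 to 0.13). Rps10 had 192 and 160 reads and a ratio of -0.19 (-0.43 to 0.05). Rps4l, at 3.29 FPKM in CHBP-, had a ratio of -0.27 (-0.61 to 0.07). As CPM, with nothing added, Rps4l was at -0.37 and Rpsa at -0.36, so its place in this order depends on the added 1. Rps2, at the entry of the mRNA, was well covered at 176 and 142 FPKM, with a ratio of -0.31 (-0.34 to -0.27). Rps27a, made as a fusion with ubiquitin, was at 24.8 and 19.2 FPKM, a ratio of -0.36 (-0.48 to -0.23). Except for Rps2 and Rps27a these values rest on fewer than 200 reads, and they did not differ detectably from 0 at this depth.

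Some ribosomal proteins have a paralogue gene that replaces or resembles the main one. Rps27l, a target of p53, was at 34.0 FPKM in CHBP- (1066 reads) and 21.7 in CHBP+ (670 reads), a ratio of -0.63 (-0.76 to -0.49). Its parent Rps27 had only 41 and 33 reads, so Rps27l took 96.3% and 95.3% of the reads of the pair, while a row with the same coding sequence as Rps27 held many more reads, as given below. Rpl22l1 was at 4.55 and 3.02 FPKM, a ratio of -0.46 (-0.66 to -0.27), beside its parent Rpl22 at 33.0 and 21.8 FPKM and -0.58 (-0.65 to -0.51). Rpl22l1 thus took 8.83% of the pair's reads in CHBP- (interval 7.95% to 9.78%) and 8.91% in CHBP+ (7.81% to 10.1%).

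Rpl7l1 lay nearer to 0 than its parent. It was at 57.8 and 51.8 FPKM, a ratio of -0.15 (-0.24 to -0.07), and Rpl7 at 233 and 165 FPKM, a ratio of -0.49 (-0.53 to -0.46). The share of Rpl7l1 in the reads of the pair was 11.5% in CHBP- (11.1% to 12.0%) and 14.2% in CHBP+ (13.6% to 14.7%), and the 2 intervals did not overlap. Its mRNA has 2606 bases and that of Rpl7 838, and ratios differed with mRNA length over all genes, as given below. With that trend taken out, Rpl7l1 was at -0.13 and Rpl7 at -0.21. Rps4l, with 94 and 72 reads, made up 0.534% and 0.552% of the reads it shared with Rps4x, which was at 492 and 369 FPKM with a ratio of -0.42 (-0.45 to -0.38). Of the paralogues known from testis and striated muscle, Rpl39l had 2 reads in each library, Rpl3l 6 and 3, and Rpl10l 0 and 0, where a count of 0 allows up to 3 reads or 0.182 CPM in CHBP- and 0.184 CPM in CHBP+. Their parents Rpl39 and Rpl10 had ratios of -0.49 (-0.65 to -0.33) and -0.35 (-0.44 to -0.25).

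The 6 genes that did not reach 1 FPKM in either library were these 3 paralogues together with Rpl9, Rps13 and Rps27, genes of proteins that are part of every ribosome. Rpl9 had 89 reads in CHBP- and 78 in CHBP+, Rps13 60 and 43, and Rps27 41 and 33, each below 1 FPKM. The low values of these genes came with rows of near-identical copies that held many more reads or with sequence that occurs several times in the genome. A read of 75 bases, the read length of the study, was therefore sought from every position of each mRNA in the mouse genome (mm9, GENCODE M1 mRNAs). Over the 82 genes with an mRNA, the median share of positions whose 75 bases also occur elsewhere was 53.7%. It was over 50% in 43 genes and over 90% in 8, and in 4, among them Rps3, Rpl3l and Rpl39l, no position was shared. For mitochondrial ribosomal protein genes the median was 0% over 76 genes.

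To show how close these copies are, 75 bases of coding sequence are given for 2 genes and the copy that held more reads, 5′ to 3′ from mm9, with the base that differs in capitals. The stretch is bases 229 to 303 of the Rpl9 coding sequence against Rpl9-ps6 (chr19:32540739-32540813, minus strand), and bases 79 to 153 of Rpl23a against Rpl23a-ps3 (chr14:34983919-34983993, plus strand).
Rpl9: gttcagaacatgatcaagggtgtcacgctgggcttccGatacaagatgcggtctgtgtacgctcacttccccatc
Rpl9-ps6: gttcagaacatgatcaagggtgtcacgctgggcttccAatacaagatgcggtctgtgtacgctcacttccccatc
Rpl23a: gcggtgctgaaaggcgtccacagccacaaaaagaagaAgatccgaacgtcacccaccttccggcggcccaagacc
Rpl23a-ps3: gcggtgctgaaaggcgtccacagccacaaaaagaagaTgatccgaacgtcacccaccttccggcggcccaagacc

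Over the whole coding sequence the copy of Rpl9 differed at 1 of 579 bases and that of Rpl23a at 1 of 471, and the copies of Rpl5 (Gm15500), Rpl12 (Gm10275), Rps27 (Rps27rt) and Rpl27 (Rpl27-ps3) at none. Rpl9-ps6 held 7404 reads in CHBP- and 5066 in CHBP+, against the 89 and 78 of Rpl9. Rpl23a-ps3 held 6420 and 4201 reads, against 48 and 37 of Rpl23a. Rps27rt held 5180 and 3138 reads, against 41 and 33 of Rps27. How reads that fit a gene and its copy equally well were assigned was not stated.

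In all, 33 rows of the table shared such 75-base stretches with 26 of the genes over at least 10% of the copy. In 10 genes the copies held more reads than the gene itself in CHBP-, the largest being Gm15500 with 24021 reads against 1360 of Rpl5, and Gm10275 with 15347 against 476 of Rpl12. Of the 33 rows, 20 had at least 100 reads in CHBP-, and all 20 were lower in CHBP+, with a median ratio of -0.47 and a range from -0.92 to -0.14. The copies held 107330 reads in CHBP- and 79673 in CHBP+. With them the share of all reads was 3.42% in CHBP- and 2.52% in CHBP+, and the share in CHBP+ was 0.738 of that in CHBP-.

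**Figure D3:**
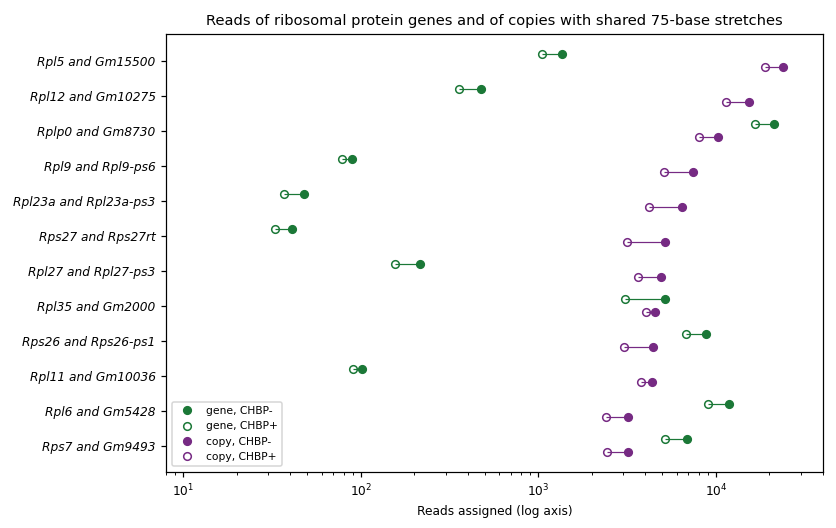
Reads assigned (log axis) to 12 ribosomal protein genes and to a near-identical copy of each, ordered by the reads of the copy, in CHBP- (filled) and CHBP+ (open). In every pair both rows have fewer reads in CHBP+, and in 7 pairs the copy lies to the right of its gene in both libraries.

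The ratio with the copies' reads added was taken as CPM. Rpl9 with its copy was at -0.52, Rpl23a at -0.59 and Rps27 at -0.70, all within the range of the genes with at least 1000 reads. Rpl35, whose copy Gm2000 had 4537 and 4061 reads and a ratio of -0.14, was at -0.73 alone and at -0.44 with its copies. Rpl11, with 4360 reads in its copies, was at -0.19, and stayed among the ratios nearest to 0. Rpl5 with its copy was at -0.33.

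Levels of different genes can only be compared per length, and the length behind the deposited FPKM was not that of the mRNA. The mRNA of a gene was here the annotated one with the longest coding sequence and, where several tied, the shortest of them. The length implied by reads and FPKM exceeded that mRNA by a median factor of 3.24 over 81 genes. The factor was over 1.5 in 60 of them, up to 18.5 for Rps15a. Per kilobase of annotated mRNA, the median CPM of the kept large subunit genes was 176 in CHBP- and 119 in CHBP+ (45 genes), and that of the small subunit genes 256 and 175 (31 genes). On this scale the genes spanned 512-fold in CHBP-, from 3.27 for Rps29 to 1673 for Rps15. The level per kilobase was lower where more of the mRNA was shared with other loci, with a rho of -0.36 over 81 genes and of -0.25 with the copies' reads added. The ratio between libraries showed a rho of 0.10 with the shared portion over 76 genes.

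The ratio differed with the length of the mRNA. Genes with a coding sequence of up to 350 bases had a median ratio of -0.63 and 8 of 15 were at least 1.5-fold lower, those of over 350 to 600 bases had a median of -0.49 with 9 of 36, and those of over 600 bases a median of -0.38 with 0 of 25. Spearman's rho of the ratio with coding length was 0.57 over 76 genes. The trend was not limited to ribosomal protein genes: over 10135 other kept genes the rho with mRNA length was 0.65, and over the 76 ribosomal protein genes 0.43. These are descriptions over genes of the same 2 libraries.

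Within each class of mRNA length the ribosomal protein genes had a lower median than the other genes. Up to 500 bases it was -0.58 (16 genes) against -0.37 (143 others), over 600 to 800 bases -0.47 (18 genes) against -0.35 (287), and over 1000 to 1500 bases -0.38 (11 genes) against -0.23 (1215). With the length trend of the other genes taken out, which was added once the data had been seen, the median over 76 genes was -0.21 and 71 of them were below 0. The lowest was then Rps20 at -0.78, whose annotated mRNA of 3706 bases, chosen as above, puts it far from the other short mRNAs. The 5 above 0 were Rpl23a, Rps10, Rpl15, Rps6 and Rpl11, up to 0.19 for Rpl11. Rpl15 had 693 reads in CHBP-, and the others 192 (Rps10) or fewer. From 68.4% (Rpl11) to 94.5% (Rps6) of their 75-base positions also occur elsewhere in the genome. With copy reads added, the ratio as CPM, without removal of the length trend, was -0.59 for Rpl23a, -0.17 for Rpl15 and -0.19 for Rpl11. Rps6 and Rps10 had no listed copy. Rpl23a, Rps10, Rps6 and Rpl11 lay between 1.36 FPKM (Rpl11) and 4.38 FPKM (Rps6) in CHBP-, where the added 1 moves ratios toward 0. Whether read assignment or the added 1 placed these genes above 0 was not tested. Over the same 76 genes the number at least 1.5-fold lower was 17 before and 2 after, Rps20 and Rps28, the latter at -0.588, close to the limit. Of all genes kept 2.89% were at least 1.5-fold lower before removal. That share was not taken after removal, so these 2 genes cannot be read as an excess. Rpl41 and Rpl24 had no annotated mRNA length and could not be fitted, and Rpl41 was one of the 18 genes at least 1.5-fold lower over all 78.

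**Figure D4:**
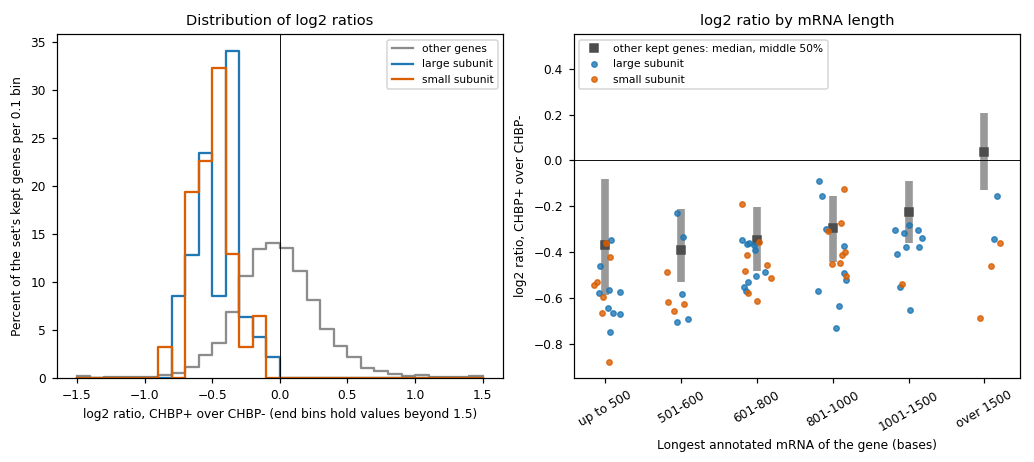
Left, the distribution of log2 ratios in bins of 0.1 as percent of the kept genes of each set, for large subunit, small subunit and all other genes. Right, the log2 ratio of each ribosomal protein gene (points) by class of annotated mRNA length, with the median (square) and interquartile range (bar) of other kept genes: both medians are lowest in the shorter classes, and the ribosomal protein genes lie mostly below the other genes of their class. The length is that of the mRNA with the longest coding sequence, although the axis is labelled longest annotated mRNA.

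The pyrimidine run, as found by the rule above, did not separate the ratios. That rule found a run in only 28.0% of the windows, so genes counted as without one may carry it at another start site. For that reason the comparison cannot decide whether the ratio differs with the TOP motif. The 20 kept genes with a run in a window had a median ratio of -0.46 (range -0.73 to -0.12) and the 37 without one -0.46 (-0.88 to -0.09). Genes with CCGGAAG had a median of -0.49 (25 genes) and those without it -0.46 (32 genes).

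Other ribosomal protein genes whose symbols fall outside the rule had ratios in the same range. Fau, which encodes a small subunit protein fused to a ubiquitin-like protein, was at 196 FPKM in CHBP- and 117 in CHBP+, a ratio of -0.75 (-0.83 to -0.66). Rack1, listed as Gnb2l1 and a signalling scaffold on the small subunit, was at 159 and 102 FPKM, a ratio of -0.64 (-0.67 to -0.61). Rpl36al was at 29.4 and 20.8 FPKM, a ratio of -0.48 (-0.60 to -0.36). The 4 genes of this list were all lower in CHBP+, with a median of -0.57.

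The other genes of protein synthesis were read from lists beside the ribosomal proteins, and 53.7% of all genes kept were below 0. Of 77 mitochondrial ribosomal protein genes, whose products form a separate ribosome, 75 were lower and 6 were at least 1.5-fold lower, with a median ratio of -0.31. Of 11 elongation factor genes kept, 7 were lower with a median of -0.24, from Eef1b2 at -0.45 to Etf1, a termination factor kept in this list, at 0.05, with Eef2, which moves the ribosome along, at 0.01. Of 39 initiation factor genes 30 were lower (median -0.16), of 57 ribosome biogenesis genes 42 (median -0.16) and of 20 RNA polymerase I genes 16 (median -0.14). Of 20 genes of mTORC1, S6 kinase and LARP1, 10 were lower and 10 higher, with a median of 0.01. In that list Mtor was highest, at 4.11 FPKM in CHBP- and 5.67 in CHBP+, a ratio of 0.39 (0.27 to 0.50). Larp1 was at 19.5 and 22.5 FPKM, a ratio of 0.20 (0.14 to 0.26). Akt1s1 was lowest, at 2.77 and 1.34 FPKM, a ratio of -0.68 (-0.85 to -0.52), followed by Eif4ebp1 at -0.50 (-0.63 to -0.37). The mRNAs of Mtor and Larp1 have 8564 and 6614 bases, and ratios differed with mRNA length over all genes, as given above. With the trend with mRNA length removed, the medians were -0.0897 for the mitochondrial ribosomal proteins, -0.0312 for the elongation factors, -0.0437 for the initiation factors and -0.0912 for the mTORC1 list, which thus turned sign. No test of the differences between these lists and the ribosomal proteins was possible with 1 library per condition.

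**Figure D5:**
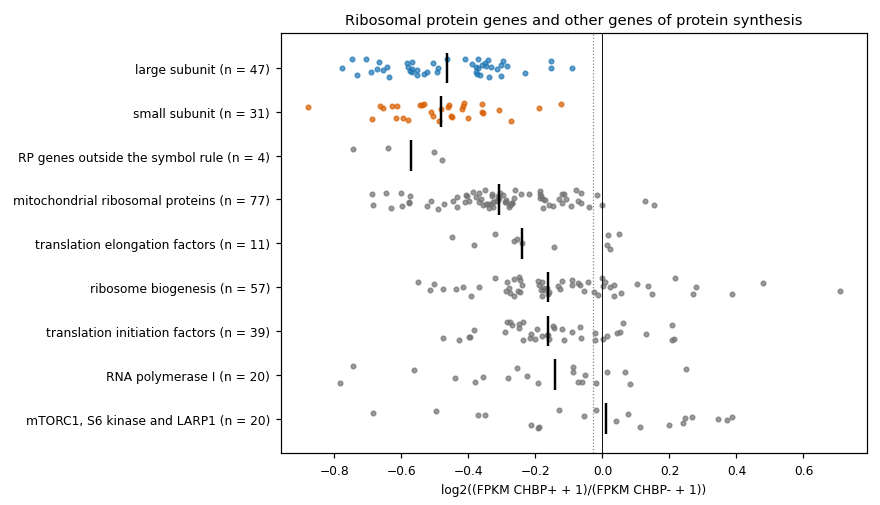
log2 ratio of each gene (points) of the large and small subunit and of 7 other lists of protein synthesis, ordered by median, with the median of each list (vertical bar). The dotted line is the median of all kept genes. The ribosomal proteins and the 4 ribosomal protein genes outside the symbol rule have the lowest medians (-0.46, -0.48 and -0.57), and the mTORC1 list a median of 0.01, which was -0.0912 with the trend with mRNA length removed.

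The sort was checked against its markers. Itgam, which encodes CD11b, had 2 rows at 157 and 99.99 FPKM in CHBP- and 232 and 153 in CHBP+, and Ly6g was low at 2.19 and 2.12 FPKM. Ly6c2 was at 56.9 FPKM in CHBP- and 34.0 in CHBP+. The summed FPKM of 5 general myeloid genes was 9997 in CHBP- and 8080 in CHBP+, most of it from Lyz2 at 9756 and 7830. Csf2ra was also lower in CHBP+ (ratio -0.20), while Ptprc (0.46), Ccr2 (0.17) and Csf1r (0.15) were higher. Markers of other cells were read in both libraries, none of them at 0: the summed FPKM of 5 neutrophil genes was 1942 in CHBP- and 1391 in CHBP+, that of 4 erythroid genes 922 and 355, of 3 B cell genes 25.8 and 17.0, of 4 T cell genes 3.00 and 2.35, of 4 dendritic cell genes 110 and 145 and of 4 mast cell or basophil genes 193 and 169. Neutrophil, erythroid and B cell markers were thus lower in CHBP+ as the ribosomal protein genes were, and their part in the ribosomal protein ratios was not tested. The mast cell or basophil list was mixed, with Mcpt8 (ratio -0.61) and Cpa3 (-0.13) lower and Ms4a2 (1.04) and Kit (0.16) higher. The dendritic cell sum was mostly Itgax, at 107 and 142 FPKM.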

How the data were processed

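RNA of 2 libraries of sorted M-MDSC, 1 per condition, was sequenced as single-end reads of 75 bases. The study's methods name TopHat2, mm9, HTSeq and DESeq, whereas the submitters' processing notes list HISAT2 2.0.4, Cufflinks 2.1.1 and Cuffdiff, and the coordinates of the table lie on GRCm38. Which tool made which column, and the handling of strand and of reads with several matches, were not given in the sources used here. The authors deposited, per the file headers, raw read counts and FPKM per gene. Per the labels, ribosomal RNA reads were removed. Columns of the authors' own comparison (fold change, p-value) were not used.

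From these values, log2((FPKM + 1)/(FPKM + 1)) was computed for genes of at least 1 FPKM in one library, with exact Clopper-Pearson intervals (95%) from the read counts, which totalled 16484504 in CHBP- and 16280466 in CHBP+. With 1 library per condition no test was run. The fold of 1.5 follows the study's methods. The members and lists were chosen with earlier results of these data known. Genes were named by rule: the P stalk genes and Rpsa, the 5 lowest and 5 highest ratios and 3 highest FPKM per subunit, paralogues and their parents, Rpl5, Rpl11, Rps6, Rps19, Rps27a, Rpl41, Fau, Rack1, Rpl36al, and members under 1 FPKM in both libraries. A few genes are not reported here. Any other gene named, the copies included, and the share of 10% that counts as a copy, were chosen after the values were seen. mRNA lengths and the search of 75-base stretches used mm9 with GENCODE M1, matched by gene ID, and promoters RefSeq on GRCm38.p6. Python 3.11.15, pandas 2.3.3, numpy 2.4.6, scipy 1.17.1, matplotlib 3.10.9 and, for one alternative scaling, edgeR 4.0.16 in R 4.3.3 were used. The scripts were tested on simulated data. Alternatives changed the pseudocount, the filter, the scaling, the treatment of length, overlaps, paralogues and copies, and the fold.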

Additional observations from a re-analysis of the deposited data

How the results depend on the processing

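All alternatives kept the median ratios of both subunits below 0, from -0.51 to -0.20 for the large and from -0.51 to -0.21 for the small subunit over 12 alternatives each. Removing the trend with mRNA length, an alternative chosen after seeing the data, gave medians of -0.20 (large) and -0.21 (small), with 0 of 45 large and 2 of 31 small subunit genes at least 1.5-fold lower, where Rpl41, at -0.78 before, and Rpl24 had no length and could not be fitted. Removing the trend with the length implied by reads and FPKM gave a small subunit median of -0.35 and 3 large and 3 small subunit genes at least 1.5-fold lower. At a fold of 2 there were 0 in each subunit. For these removals and this fold the share over all genes kept, 2.89% as reported, was not taken. Without genes that overlap another, 8 of 37 large and 5 of 28 small subunit genes were at least 1.5-fold lower. The small subunit genes left out, Rps28, Rps18 and Rps25, had all been at least 1.5-fold lower. The share of reads in CHBP+ over that in CHBP- was 0.729 without the 10 genes of most reads and 0.738 with the copies' reads added, the latter also chosen after seeing the data. The elongation factor median was -0.14 without the trend with implied length and -0.0312 without that with mRNA length, the initiation factor median -0.0437 and the mitochondrial ribosomal protein median -0.0897 without the latter. The mTORC1 list median, 0.01 as reported, was -0.0248 and -0.0912 without these trends. The cause of these shifts, beyond the length terms themselves, was not tested. Trimmed mean of M values scaling moved all ratios by 0.01.

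No paired analysis was possible because there was 1 library per condition, and no replicate was left out for the same reason. Counting intervals do not cover the spread between cultures or library preparations, and genes with few reads, such as Rpl36 with 76 and 42, have wide ones.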
